A study of Mus musculus with 12 samples.

Results

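The 10 glycolytic enzymes Hk2, Gpi1, Pfkl, Aldoa, Tpi1, Gapdh, Pgk1, Pgam1, Eno1 and Ldha, which were chosen by symbol to run from hexokinase to lactate dehydrogenase, were all present among the 18546 genes of the deposited table. RNA was measured in mouse hematopoietic stem cells (HSCs), sorted as CD150+ CD48- Lin- Sca1+ cKit+ from the marrow of C57BL/6 animals 10 to 12 weeks old. The 4 genotypes had 3 libraries each: compound mutants (NrasG12D/+;Tet2+/-), Nras mutants (NrasG12D/+), Tet2 mutants (Tet2+/-) and wild type. NrasG12D is an activated form of the small GTPase Nras, and Tet2 is an enzyme that oxidises methylcytosine in DNA. The labels do not say which promoter or Cre, if any, controls either allele, nor whether the libraries of a genotype came from separate animals. The p-values therefore measure the spread between these samples, which may be technical.

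Glycolysis splits glucose into pyruvate in the cytosol and yields ATP and NADH, and lactate dehydrogenase can then reduce pyruvate to lactate and restore NAD+. Quiescent HSCs are known for a glycolytic metabolism with low mitochondrial activity, and several of the enzymes are textbook targets of the hypoxia-inducible factors (HIF) and of MYC. Hexokinase and phosphofructokinase catalyse committed, largely irreversible steps, while most of the others work near equilibrium.

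Promoter sequences are shown for the pair of enzymes whose RNA differed most between genotypes by unadjusted p (Gpi1 and Aldoa). A window of Ldha is also shown, because it held the most HIF cores. Each window runs from 250 bases before to 50 bases after a RefSeq transcription start in GRCm38.p6 and is written 5′ to 3′ on the gene's strand. Capitals mark ACGTG or GCGTG, the core of the hypoxia response element, on either strand, so that CACGT and CACGC are the same cores on the other strand. ACGTG also lies within the E-box CACGTG, and the capitals run together there.
Gpi1, chr7:34230287-34230586, minus strand: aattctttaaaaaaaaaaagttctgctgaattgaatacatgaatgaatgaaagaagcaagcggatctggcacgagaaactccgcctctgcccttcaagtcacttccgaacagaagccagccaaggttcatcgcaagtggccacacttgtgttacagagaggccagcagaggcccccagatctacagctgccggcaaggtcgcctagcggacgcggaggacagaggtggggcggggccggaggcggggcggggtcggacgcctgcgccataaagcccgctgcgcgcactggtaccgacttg
Aldoa, chr7:126799205-126799504, minus strand: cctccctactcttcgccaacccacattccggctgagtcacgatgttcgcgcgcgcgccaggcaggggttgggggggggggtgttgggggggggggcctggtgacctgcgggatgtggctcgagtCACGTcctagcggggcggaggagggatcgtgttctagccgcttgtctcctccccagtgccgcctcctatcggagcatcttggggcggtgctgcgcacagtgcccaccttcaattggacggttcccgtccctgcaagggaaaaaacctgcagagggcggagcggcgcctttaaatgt
Ldha, chr7:46845554-46845853, plus strand: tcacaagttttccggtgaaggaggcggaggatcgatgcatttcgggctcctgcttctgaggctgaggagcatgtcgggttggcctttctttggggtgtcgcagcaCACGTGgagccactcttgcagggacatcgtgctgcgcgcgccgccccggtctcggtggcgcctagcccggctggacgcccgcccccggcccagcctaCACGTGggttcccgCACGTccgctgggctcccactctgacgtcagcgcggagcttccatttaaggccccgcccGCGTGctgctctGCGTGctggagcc
The Gpi1 window held neither core, the Aldoa window shown held 1 ACGTG, and the Ldha window shown held the E-box CACGTG at 2 places. Aldoa and Ldha have further windows that are not shown. An Aldoa window at 126800398 to 126800697 held neither core, and the other Ldha window held GCGTG but no ACGTG. All 10 enzymes matched the RefSeq promoter table, with 15 windows between them. ACGTG or GCGTG was present in 12 of those 15 windows and in windows of 8 enzymes, all but Gpi1 and Tpi1. Over all 32851 RefSeq windows, 43.77% held ACGTG or GCGTG, 19.62% held ACGTG and 7.15% held CACGTG, which in the enzymes was found for Ldha alone. GGGCGG, the core of the GC box, was in 11 of the 15 windows, from 9 enzymes, and in 35.66% of all windows. Some windows of Eno1 and of Aldoa overlap, so that a shared core counts in each of them. TATAAA was in 0 of the 15 windows and in 13.62% of all windows.

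The depth was 19205045 to 36890942 reads in genes per library, and each enzyme rested on 102 to 6782 reads in a library. All 10 enzymes reached 1 RPKM (reads scaled to gene length and to library size) in at least 3 libraries and were tested among 15478 genes. Of the targeted genes, Nras stood at 6.24 ± 0.981, 5.74 ± 0.882 and 6.08 ± 0.778 RPKM in compound, Nras and Tet2 mutants against 5.58 ± 0.597 RPKM in wild type. Tet2 stood at 4.98 ± 0.615, 5.71 ± 1.16 and 4.72 ± 0.579 RPKM in the same mutants against 4.95 ± 0.0301 RPKM in wild type (SD, n = 3 each), so the RNA level of Tet2 did not separate its carriers. Markers of the sort were present in each genotype (Kit averaged 66.7 to 81.6 RPKM), but their levels differed. Ly6a (Sca1) stood at 4.37 to 7.65, 5.51 to 8.32 and 3.51 to 4.92 RPKM in compound, Nras and Tet2 mutants against 2.21 to 4.96 in wild type. Slamf1 (CD150) stood at 3.17 to 6.46, 5.26 to 7.56 and 6.36 to 8.97 RPKM against 5.26 to 11.3 in wild type. Neither was called in any comparison. Cd48, which the gate excludes, was at 0 reads in all 3 wild-type libraries and at no more than 1.28 RPKM elsewhere. Wild-type replicate 1 had the most genes at 0 reads (3824) and held the highest or lowest of the 12 values for 6 of the 10 enzymes, against 31.5% of all tested genes.

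No glycolytic enzyme passed the threshold of adjusted p under 0.05 (limma, Benjamini-Hochberg over all tested genes) in any of 8 comparisons. The background was almost as empty: 1 gene (0.00646%) was called in each of compound, Nras and Tet2 mutants against wild type. Another 1 gene (0.00646%) was called in compound against Tet2 mutants, 2 genes (0.0129%) in the interaction, 5 genes (0.0323%) between NrasG12D carriers and non-carriers, and 0 (0.0%) in compound against Nras mutants or between Tet2+/- carriers and non-carriers. At an unadjusted p under 0.05, the enzymes were Gpi1 and Aldoa alone. Both passed it in compound mutants against wild type (6.42% of all genes), Aldoa in Nras mutants against wild type (5.61%) and in NrasG12D carriers (7.24%), and neither in Tet2 mutants against wild type (3.35%). Gpi1 passed it in compound against Nras mutants (4.04%, 625 genes), in compound against Tet2 mutants (5.45%), in the interaction (3.38%) and in Tet2+/- carriers (3.81%, 589 genes). These were 0 to 2 of 10 enzymes per comparison.

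**Figure D1:**
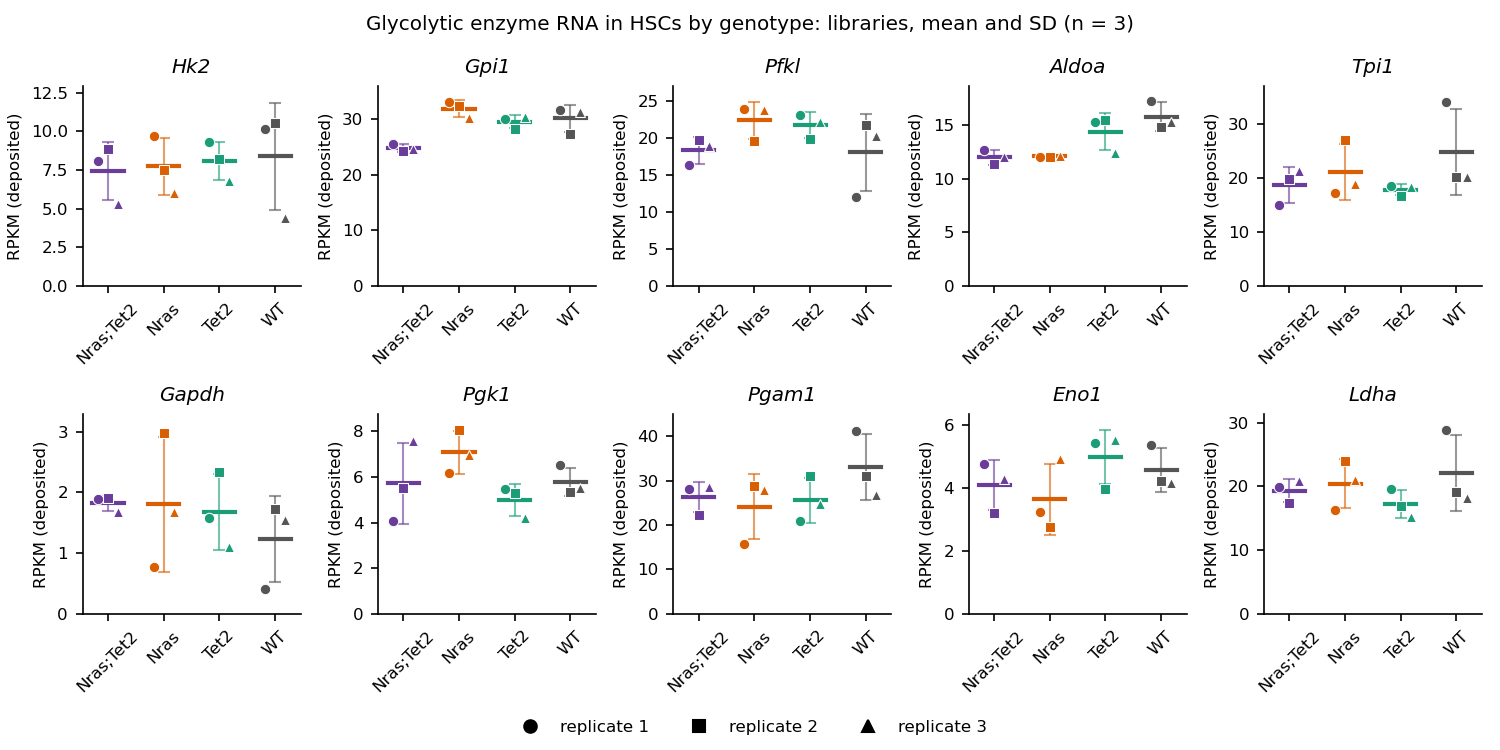
RPKM of each of the 10 enzymes (vertical axes, from 0) in compound (Nras;Tet2), Nras and Tet2 mutants and wild type, with 1 point per library, the mean as a bar and the SD as a whisker (n = 3). The 3 compound libraries of Gpi1, at 24.2 to 25.5 RPKM, lie below all other libraries, and the 6 libraries with NrasG12D lie at 11.4 to 12.7 RPKM for Aldoa.

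Hexokinase 2 (Hk2, chromosome 6, 82725025 to 82774454), an inducible enzyme that traps glucose as glucose 6-phosphate, stood at 8.11, 8.84 and 5.28 RPKM in compound mutants, 9.70, 7.52 and 6.02 in Nras mutants, 9.29, 8.18 and 6.77 in Tet2 mutants against 10.2, 10.6 and 4.39 in wild type. All 4 genotypes overlapped. Replicate 3 was the lowest of its genotype in all 4, a pattern shared by 149 tested genes (0.963%). The log2 difference against wild type was -0.10 in compound mutants (95% interval -0.88 to 0.68). It was 0.09 without wild-type replicate 1 and -0.25 without compound replicate 2, so 1 library set its sign.

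Glucose phosphate isomerase (Gpi1, chromosome 7, 34201330 to 34230336) converts glucose 6-phosphate to fructose 6-phosphate. It stood at 25.5, 24.2 and 24.7 RPKM in compound mutants, 33.1, 32.4 and 30.1 in Nras mutants, 30.0, 28.2 and 30.4 in Tet2 mutants against 31.6, 27.3 and 31.3 in wild type. The 3 compound libraries were the lowest of the 12 and overlapped no other genotype, while the other 3 genotypes overlapped one another. Among all tested genes, 84 (0.543%) had the 3 compound libraries as the lowest of 12. Means were 24.8 ± 0.659 RPKM in compound mutants, 31.9 ± 1.55 in Nras mutants and 29.5 ± 1.18 in Tet2 mutants, against 30.1 ± 2.38 in wild type (SD, n = 3 each). The log2 difference of the compound mutants was -0.28 ± 0.09 (SE) from wild type (limma adjusted p = 0.754), -0.36 from Nras mutants (adjusted p = 1.0) and -0.25 from Tet2 mutants (adjusted p = 0.819), with 95% intervals of -0.47 to -0.08, -0.56 to -0.16 and -0.45 to -0.05. Gpi1 was 0.08 above wild type in Nras mutants (95% interval -0.11 to 0.28) and -0.02 from it in Tet2 mutants (-0.22 to 0.17). The interaction, the part of the compound difference that the single-mutant differences do not add up to, was -0.34 (95% interval -0.62 to -0.06, limma adjusted p = 0.996). In bulk RNA, fewer cells of a type and less RNA per cell cannot be told apart.

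The liver-type phosphofructokinase (Pfkl, chromosome 10, 77986947 to 78010083), which phosphorylates fructose 6-phosphate, stood at 16.3, 19.8 and 19.0 RPKM in compound mutants, 23.9, 19.6 and 23.8 in Nras mutants, 23.2, 19.9 and 22.3 in Tet2 mutants against 12.1, 21.8 and 20.3 in wild type. The compound libraries lay just below all 3 Tet2 libraries, by 19.8 against 19.9 RPKM at the nearest, and overlapped the other genotypes. Wild-type replicate 1 was the lowest of the 12. With it the log2 difference was 0.35 in Nras mutants and 0.31 in Tet2 mutants (adjusted p = 0.870 and 1.0), and without it 0.09 and 0.05 (adjusted p = 0.999 and 1.0).

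Aldolase A (Aldoa, chromosome 7, 126795234 to 126800751), which splits fructose 1,6-bisphosphate into a pair of triose phosphates, separated the libraries almost by NrasG12D. It stood at 12.7, 11.4 and 12.0 RPKM in compound mutants, 12.1, 12.1 and 12.2 in Nras mutants, 15.3, 15.5 and 12.4 in Tet2 mutants against 17.3, 14.8 and 15.3 in wild type. Both genotypes with NrasG12D lay below all wild-type libraries, and the only overlap of the 6 carriers with the 6 non-carriers came from Tet2 replicate 3 at 12.4 RPKM. Means were 12.0 ± 0.689, 12.1 ± 0.0535 and 14.4 ± 1.73 RPKM in compound, Nras and Tet2 mutants and 15.8 ± 1.34 RPKM in wild type (SD, n = 3 each). The log2 difference against wild type was -0.39 ± 0.12 (SE) in compound mutants (limma adjusted p = 0.754), -0.38 in Nras mutants (limma adjusted p = 0.860) and -0.14 in Tet2 mutants (limma adjusted p = 1.0). Compound and Nras mutants differed by -0.01 (95% interval -0.28 to 0.26). Averaged over the Tet2 genotypes, carriers of NrasG12D were 0.32 ± 0.09 lower (limma adjusted p = 0.381). Of all tested genes, 0.846% had carriers and non-carriers that did not overlap, and Aldoa was not among them. The share of genes with as small an overlap as Aldoa was not counted. By limma, 7.24% of all genes had an unadjusted p under 0.05 in this comparison. The 7 tested proliferation markers (Mki67, Top2a and others) had summed levels of 291 to 342 and 307 to 316 RPKM in compound and Nras mutants. Their sums were 174 to 206 RPKM in Tet2 mutants and 156 to 223 RPKM in wild type. All 7 markers were higher in carriers of NrasG12D, with log2 differences of 0.35 to 1.07. Of these, 1 passed the threshold, Top2a (log2 difference 0.76, limma adjusted p = 0.0376). Their part in the Aldoa values was not tested. GENCODE M21 gives the symbol Aldoa to a further gene at 126800790 to 126809108, and the symbol in the table does not tell them apart.

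Triose phosphate isomerase (Tpi1, chromosome 6, 124810586 to 124814296) interconverts the aldolase products. It stood at 14.9, 19.8 and 21.3 RPKM in compound mutants, 17.2, 26.9 and 18.9 in Nras mutants, 18.5, 16.6 and 18.2 in Tet2 mutants against 33.9, 20.1 and 20.2 in wild type. The Tet2 libraries lay below all wild-type libraries, and the other mutants overlapped wild type. The log2 difference against wild type was -0.43 in Tet2 mutants (limma adjusted p = 1.0) and -0.18 without wild-type replicate 1, the highest library of the 12.

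Glyceraldehyde 3-phosphate dehydrogenase (Gapdh, chromosome 6, 125161715 to 125166467), which opens the payoff phase by making NADH, had the widest spread of the 10. It stood at 1.88, 1.90 and 1.68 RPKM in compound mutants, 0.768, 2.98 and 1.68 in Nras mutants, 1.58, 2.34 and 1.11 in Tet2 mutants against 0.415, 1.73 and 1.54 in wild type. The highest library was 7.19 times the lowest, and replicate 2 was the highest in all 4 genotypes, as for 286 tested genes (1.85%). The log2 difference of compound mutants from wild type was 0.82 (95% interval -0.67 to 2.30), and 0.16 without wild-type replicate 1. Copies of Gapdh held 70.5% to 94.3% of the reads on Gapdh and its copies together, by library.

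Phosphoglycerate kinase 1 (Pgk1, chromosome X, 106187100 to 106203699), which makes ATP, stood at 4.07, 5.504 and 7.59 RPKM in compound mutants, 6.19, 8.07 and 6.96 in Nras mutants, 5.47, 5.29 and 4.19 in Tet2 mutants against 6.50, 5.32 and 5.52 in wild type. The compound libraries spanned nearly the whole range. Compound mutants were -0.34 from Nras mutants on the log2 scale (limma adjusted p = 1.0), and the difference was -0.57 without compound replicate 3 and -0.12 without compound replicate 1.

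Phosphoglycerate mutase 1 (Pgam1, chromosome 19, 41911923 to 41918660), which moves the phosphate to the second carbon, stood at 28.1, 22.3 and 28.5 RPKM in compound mutants, 15.6, 28.8 and 27.9 in Nras mutants, 20.994, 31.0 and 24.7 in Tet2 mutants against 41.2, 31.0 and 26.8 in wild type. Every mutant genotype overlapped wild type. The log2 difference was -0.48 in Nras mutants (limma adjusted p = 0.870), -0.20 without Nras replicate 1 and -0.64 without Nras replicate 2.

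Enolase 1 (Eno1, chromosome 4, 150236721 to 150248879), which forms phosphoenolpyruvate, stood at 4.77, 3.22 and 4.29 RPKM in compound mutants, 3.25, 2.76 and 4.92 in Nras mutants, 5.43, 3.99 and 5.53 in Tet2 mutants against 5.39, 4.22 and 4.16 in wild type. All genotypes overlapped wild type, and the NrasG12D carriers differed from non-carriers by -0.33 (limma adjusted p = 0.783). Lactate dehydrogenase A (Ldha, chromosome 7, 46841475 to 46855627), which reduces pyruvate to lactate, stood at 19.8, 17.3 and 20.8 RPKM in compound mutants, 16.4, 24.0 and 21.002 in Nras mutants, 19.6, 17.0 and 15.2 in Tet2 mutants against 28.9, 19.1 and 18.2 in wild type. All genotypes overlapped, and the log2 difference against wild type was -0.33 in Tet2 mutants (limma adjusted p = 1.0) and -0.12 without wild-type replicate 1.

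**Figure D2:**
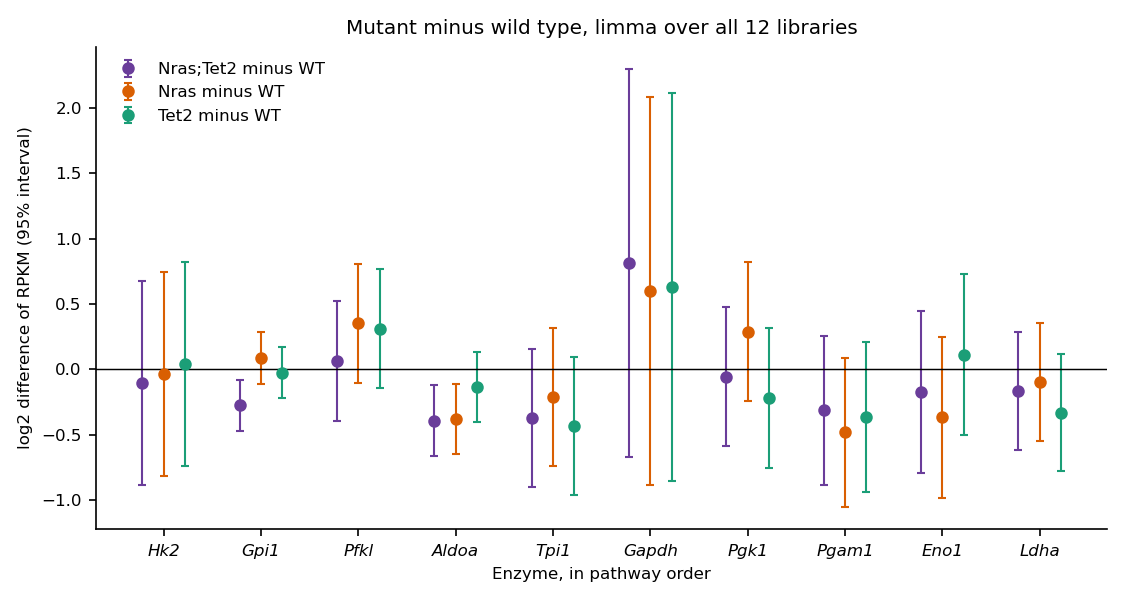
Log2 difference of RPKM from wild type (vertical axis) for each enzyme in pathway order, in compound (Nras;Tet2), Nras and Tet2 mutants, with limma's 95% interval. The intervals of Aldoa in compound and Nras mutants and of Gpi1 in compound mutants exclude 0 before adjustment, and those of Gapdh are the widest.

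Read together, the enzymes had median log2 differences from wild type of -0.17 in compound mutants, -0.06 in Nras mutants and -0.08 in Tet2 mutants, beside 0.02, 0.01 and 0.04 over all tested genes. In compound mutants 8 of the 10 differences were negative, against 48.3% of all tested genes. The counts were 6 of 10 in Nras mutants (48.6% of all genes) and 6 of 10 in Tet2 mutants (45.7%). These 3 comparisons share the wild-type libraries, and wild-type replicate 1 enters each. Without it the median was -0.09 in compound mutants, with 6 of 10 negative, 0.06 in Nras mutants, with 4 of 10 negative, and -0.05 in Tet2 mutants, with 6 of 10 negative. The medians over all tested genes were then -0.05, -0.04 and -0.01. Groups did not overlap for 2 enzymes in compound mutants (Gpi1 and Aldoa), 1 in Nras mutants (Aldoa) and 1 in Tet2 mutants (Tpi1), while 11.2%, 9.74% and 9.25% of all genes had no overlap in those comparisons. Compound mutants did not overlap Nras mutants for 1 enzyme (Gpi1, 8.48% of all genes) and Tet2 mutants for 2 (Gpi1 and Pfkl, 12.7%). The enzymes did not rise and fall as a block across libraries. Over the 12 libraries Ldha and Tpi1 had the highest correlation of log2 RPKM among the 45 pairs (Pearson r = 0.80, and 0.57 without wild-type replicate 1) and Pgam1 and Pfkl the lowest (r = -0.70, and -0.49 without it), given as a description of libraries that share depth and normalization.

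**Figure D3:**
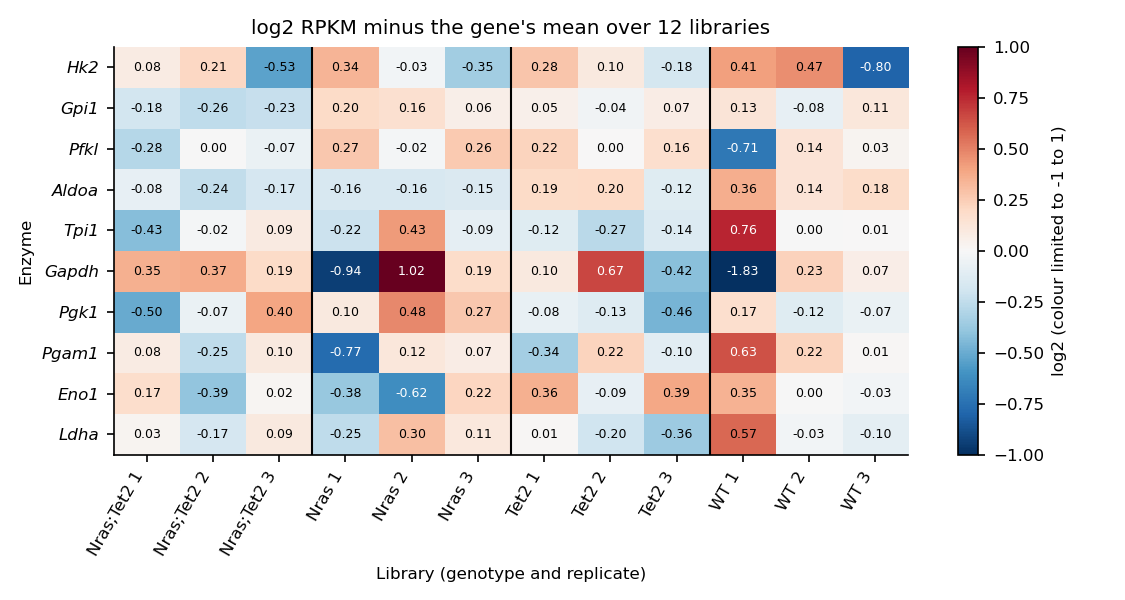
Log2 RPKM of each enzyme (rows) in each library (columns) minus the enzyme's mean over the 12 libraries, in colour and as numbers. Wild-type replicate 1 is high for Tpi1, Pgam1 and Ldha and low for Pfkl and Gapdh, and Gpi1 is below its mean in the 3 compound libraries alone apart from small values in Tet2 replicate 2 and wild-type replicate 2.

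The enzymes differed in their spread within genotypes. The within-genotype SD of log2 RPKM was 0.08 for Gpi1 and 0.12 for Aldoa, smaller than for all but 0.220% and 1.82% of tested genes. It was 0.26 to 0.46 for the other enzymes except Gapdh, at 0.80, against a median of 0.49 over all tested genes. By limma's F test over the 4 genotypes, Gpi1 (adjusted p = 0.925) and Aldoa (adjusted p = 0.928) were the 2 enzymes with an unadjusted p under 0.05, as were 4.97% of all genes, and 2 genes (0.0129%) passed after adjustment.

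Several of the enzymes have near-identical copies in the genome, and their reads can be divided among rows. Copies were counted at 90% identity or more over at least 300 bases. Hk2 and Pfkl had 0 such copies, and Tpi1 had 2 pseudogenes, of which 0 were in the table. Gpi1 had 1, the pseudogene Gm1840, which is 98.6% identical over its match and took 22.3% to 31.3% of the reads of both rows. Summed over both rows, reads scaled to library size (RPM) were 206, 218 and 221 in compound mutants, 279, 276 and 257 in Nras mutants, 239, 249.8 and 252 in Tet2 mutants against 273, 246 and 270 in wild type. The compound libraries remained the lowest 3 of the 12, with a log2 difference from wild type of -0.29. The Gpi1 gene also overlaps the long noncoding RNA gene Gm26762 on the other strand by 5482 bases. Aldoa overlaps Fam57b on the other strand, which was not used here. The labels name a stranded kit, but whether counting used the strand is not given in the sources used here.

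**Figure D4:**
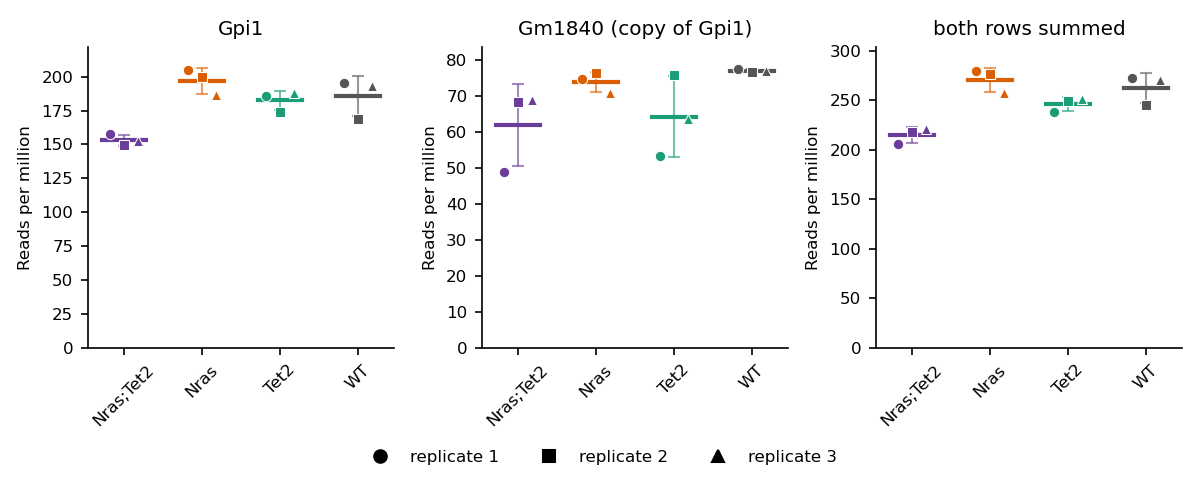
RPM for Gpi1, for its pseudogene Gm1840 and for both rows summed, in compound (Nras;Tet2), Nras and Tet2 mutants and wild type, with 1 point per library, the mean as a bar and the SD as a whisker (n = 3). Summed reads lie at 206 to 221 RPM in compound libraries and at 239 or more in all others.

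For Gapdh, copies matched 109 pseudogenes and 4 other genes. Summed with the 45 of these rows in the table, Gapdh averaged 107 ± 12.9, 118 ± 6.59 and 102 ± 10.7 RPM in compound, Nras and Tet2 mutants against 104 ± 20.5 in wild type (SD, n = 3 each). The log2 difference of compound mutants from wild type was 0.04 on that sum against 0.82 for the Gapdh row alone. Eno1b, which is 99.5% identical to Eno1 over its match, took 47.2% to 67.2% of the reads of the pair. Summed with its copies, Eno1 differed from wild type by -0.10, -0.11 and -0.09 in compound, Nras and Tet2 mutants, against -0.17, -0.37 and 0.11 alone. Aldoa kept a lower mean when Aldoart1 and its other listed copies were added, by -0.27 in compound and -0.30 in Nras mutants relative to wild type, at 145 to 159 RPM in the 6 carriers and 148 to 188 in the 6 non-carriers. Ldha had 13 pseudogene copies, and the 5 of them in the table held 3.77% to 19.7% of the reads of Ldha and its copies, by library. Summed with them, Ldha differed from wild type by -0.23, -0.09 and -0.33 in compound, Nras and Tet2 mutants, against -0.16, -0.10 and -0.33 alone. The Ldha levels and ratios below used the Ldha row alone. Pgk1 shared reads with Pgk1-rs7, and Pgam1 with Pgam1-ps2, each 100% identical over its match. For their shared reads, Pgk1, Pgam1, Eno1 and Gapdh are reported as uncertain.

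The order of levels between enzymes depended on the gene length used. The length behind the deposited RPKM, read back from the values, was 0.811 to 2.98 times the union of annotated exons. For 4 enzymes (Hk2, Gapdh, Pgk1 and Eno1) it equalled the summed length of all transcripts, as it did for 59.4% of the 12226 genes with several transcripts. Per kilobase of exon union, the order by median level was Ldha (43.6), Aldoa (36.4), Gpi1 (28.8), Pgam1 (25.9), Tpi1 (25.7), Pfkl (16.3), Hk2 (12.8), Pgk1 (10.6), Eno1 (8.13) and Gapdh (4.9997), in RPKM. On the deposited scale Gpi1 came first at 30.1 and Ldha was at 19.3, behind Pgam1, Pfkl and Tpi1. The exon union is also a choice, as it counts every annotated exon. For Eno1 it has 5379 bases, while the longest transcript has 2027, and for Aldoa it pools the genes that share the symbol. Levels by longest transcript were not computed. The low place of Gapdh and Eno1 on both scales stands beside the reads held by their copies, and the ranges of neighbours such as Pgam1 (14.4 to 38.1) and Tpi1 (19.8 to 44.96) overlapped.

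**Figure D5:**
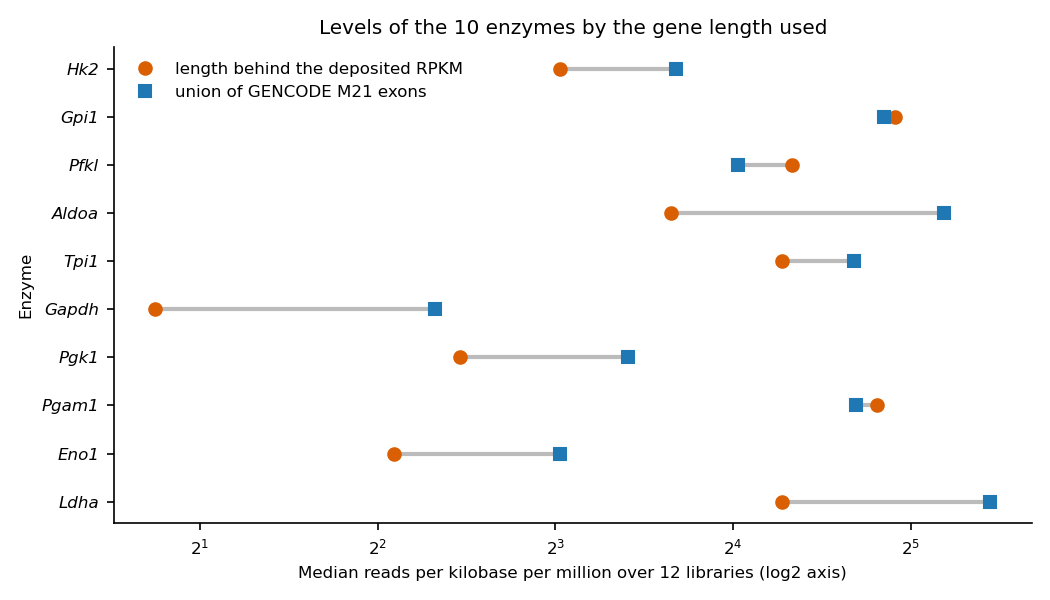
Median RPKM over 12 libraries (horizontal log2 axis) for each enzyme (rows), on the length behind the deposited RPKM (circles) and on the union of annotated exons (squares). Ldha and Aldoa move to the highest places on the union length, at 43.6 and 36.4.

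Most steps have isoenzymes, and the balance between them was read as a log2 ratio within each library. On exon-union length, Hk2 made up 24.1%, 22.9% and 27.0% of Hk1 plus Hk2 in compound, Nras and Tet2 mutants against 24.1% in wild type, so the constitutive Hk1 held the larger share in each genotype. Of the phosphofructokinases, the muscle-type Pfkm had the highest median on that length (25.8 RPKM, against 16.3 for Pfkl and 4.98 for the platelet-type Pfkp). On the deposited scale the order of Pfkl and Pfkm was reversed (20.1 for Pfkl, 15.1 for Pfkm and 3.06 for Pfkp), so it depended on the length used. Pfkl was 73.6% to 80.2% of Pfkl plus Pfkp by genotype, with Pfkm left out, and Aldoa 86.8% to 90.5% of Aldoa plus Aldoc. Ldha made up 64.6%, 65.4% and 55.7% of Ldha plus Ldhb in compound, Nras and Tet2 mutants against 62.9% in wild type, and Ldhb is the subunit that favours lactate oxidation. The Ldha to Ldhb ratio was 0.35 higher on the log2 scale in the 6 NrasG12D carriers than in the 6 non-carriers (exact two-sided permutation test, p = 0.0974, adjusted p = 0.876 over 12 tests). It was the smallest p of the 12 tests of 6 ratios and 2 alleles, of which 0 passed, and the smallest p that the 924 arrangements allow is 0.00216. Pkm, pyruvate kinase and the step before Ldha, had a median of 54.4 on exon-union length, above all 10 enzymes, and on the deposited scale averaged 51.6 ± 4.22, 54.1 ± 6.48 and 60.9 ± 5.43 RPKM in compound, Nras and Tet2 mutants against 67.8 ± 17.5 RPKM in wild type (SD, n = 3 each).

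In 6 further lists of genes around the pathway, 0 genes passed in any of the 8 comparisons, and the smallest adjusted p by limma was 0.333. Of the isoenzymes and other steps, 11 of 19 listed genes were tested. Hk3, a hexokinase of myeloid cells, averaged 1.72, 1.58 and 2.74 RPKM in compound, Nras and Tet2 mutants against 4.07 RPKM in wild type. Ldhd, a mitochondrial D-lactate dehydrogenase, averaged 0.872, 1.07 and 2.80 RPKM against 2.07 RPKM in wild type. Carriers of NrasG12D lay below all non-carriers for Hk3, as for 60 tested genes (0.388%), and overlapped them for Ldhd, with differences of -1.04 (limma adjusted p = 0.384) and -1.34 (adjusted p = 0.333). Bpgm, which makes 2,3-bisphosphoglycerate, averaged 3.43, 4.38 and 4.78 RPKM against 2.99 RPKM in wild type.

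Among 16 tested genes for control of glycolysis and for glucose and lactate transport, Txnip, an inhibitor of glucose uptake, stood at 127, 178 and 143 RPKM in compound mutants, 149, 153 and 140 in Nras mutants and 129, 169 and 180 in Tet2 mutants against 110, 98.7 and 122 in wild type. All 9 mutant libraries lay above the 3 wild-type libraries, as for 78 tested genes (0.504%), and the differences of 0.42 to 0.52 did not pass (adjusted p = 0.754, 0.870 and 1.0). Epas1, which encodes HIF-2 alpha, averaged 0.149, 0.641 and 1.11 RPKM against 1.59 RPKM in wild type and had 0 reads in compound replicate 1. Mlxip, a glucose-sensing transcription factor, averaged 12.2, 10.5 and 13.6 RPKM against 11.8 RPKM in wild type. Wild type had the lowest Txnip and the highest Epas1 of the 4 genotypes.

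Other HIF targets (11 tested) had median differences from wild type of 0.20, 0.18 and 0.08 in compound, Nras and Tet2 mutants, against -0.17, -0.06 and -0.08 for the 10 enzymes. All of these medians include wild-type replicate 1. Without it those of the enzymes were -0.09, 0.06 and -0.05, and those of the HIF targets are not given here. Kdm3a, a histone demethylase, stood at 17.4, 16.7 and 18.1 RPKM in compound mutants, 17.3, 17.96 and 17.1 in Nras mutants and 13.3, 16.0 and 15.9 in Tet2 mutants against 14.8, 14.1 and 13.7 in wild type. Its 6 NrasG12D libraries lay above the 6 others, which held for 71 tested genes (0.459%), and the difference of 0.25 did not pass (adjusted p = 0.412). Higd1a, a mitochondrial protein induced by hypoxia, averaged 3.42, 2.02 and 1.68 RPKM against 0.740 RPKM in wild type, where replicate 1 had 0 reads. Egln3, a HIF prolyl hydroxylase, averaged 3.58, 2.34 and 4.41 RPKM against 4.77 RPKM in wild type.

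Of the routes that leave glycolysis, pyruvate entry to mitochondria had 12 tested genes. Dlat, a subunit of pyruvate dehydrogenase, averaged 5.69, 5.84 and 7.68 RPKM in compound, Nras and Tet2 mutants against 4.93 RPKM in wild type, Pdha1 26.6, 30.5 and 25.4 against 29.5, and Pdp2, which activates the complex, 9.48, 7.72 and 13.01 against 11.1. In the pentose phosphate pathway (8 tested), Taldo1, transaldolase, averaged 30.5, 27.9 and 21.8 RPKM against 31.9 RPKM in wild type, Rpe 2.52, 1.60 and 1.70 against 3.24, and H6pd 9.43, 9.07 and 9.93 against 11.3. The lowest Taldo1 mean was that of Tet2 mutants. Of gluconeogenesis, 3 of 6 listed genes were tested. Fbp1, which reverses the phosphofructokinase step, averaged 2.34, 0.852 and 1.77 RPKM against 3.31 RPKM in wild type, G6pc3 3.28, 4.12 and 3.40 against 4.12, and the mitochondrial Pck2 31.2, 32.1 and 27.5 against 32.3. None of these genes passed, and their order among genotypes differed from gene to gene.

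Outside these lists, Rinl, Nfkbid, Dhx29 and Tbpl1 were among the genes most like the mean profile of the 10 enzymes over the 12 libraries. Their Pearson r with it was 0.88, 0.84, 0.84 and 0.83 (Spearman's rho 0.89, 0.76, 0.77 and 0.87). Without Nras replicates 1 and 2, the libraries with the lowest and highest profile, r was 0.82, 0.68, 0.64 and 0.83. They were taken from the highest of all genes, so the size of r is a description of that choice. The profile is a plain mean of centred log2 values, so an enzyme with a wide spread, such as Gapdh, weighs more in it. Gapdh stood at 0.768 RPKM in Nras replicate 1 and at 2.98 RPKM in Nras replicate 2. A profile without Gapdh was not tested.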

How the data were processed

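RNA of sorted HSCs was measured in 12 libraries, 3 per genotype as the labels give it. The single table deposited by the authors holds log2 RPKM, an other unit than counts, for 18546 genes. Per the submitters' processing notes the tools were CASAVA 1.8.2, TopHat2 and edgeR with mm10, with no role stated; per the labels' protocols the libraries were stranded and depleted of ribosomal RNA. Whole reads with a prior of 0.25 were recovered for 100% of genes (tolerance 0.001 reads), which gave depths of 19205045 to 36890942 reads. PCR copies among the reads cannot be told from separate molecules, and intervals cover the spread between libraries.

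Genes at 1 RPKM or more in at least 3 libraries (15478, with 3068 left out) entered a limma 3.58.1 fit (R 4.3.3) to the deposited log2 RPKM, 1 mean per genotype, 8 residual degrees of freedom, a variance trend, two-sided, Benjamini-Hochberg over all genes, threshold 0.05. Isoenzyme ratios were compared by exact permutation (scipy 1.17.1). The method was tested on simulated data. The enzymes and all gene lists were chosen with earlier results of these data known. All 10 enzymes are named with values in every library, and each further list by the 3 genes with the smallest F test p. Coordinates are GENCODE M21 (mm10), copies were found with BLAST 2.17.0 and promoter windows come from RefSeq GRCm38.p6. Exon-union lengths, sums with copies and ratios without 2 libraries were added after the data were seen. A gene among those most like the enzymes' mean profile is not reported here.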

Additional observations from a re-analysis of the deposited data

How the results depend on the processing

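No glycolytic enzyme was called in any of 165 combinations of comparison and alternative setting, and the smallest adjusted p was 0.242, for Aldoa between NrasG12D carriers and non-carriers (0.242 to 0.618 over its alternatives). Gpi1 kept a lower level in compound mutants than in wild type (log2 difference -0.34 to -0.24) and Aldoa in both genotypes with NrasG12D (compound -0.44 to -0.32, Nras -0.43 to -0.31). The median of the 10 enzymes ran from -0.27 to -0.09 in compound, -0.28 to 0.06 in Nras and -0.20 to -0.04 in Tet2 mutants against wild type, with the highest value in Nras mutants without wild-type replicate 1 and in compound mutants without wild-type replicate 1 and Nras replicate 2. Calls over all genes ran from 0 to 20 by setting. Same-numbered libraries had correlations of their deviations from -0.125 to 0.136, with 2 of 18 over 0.1. Replicate 1 was the lowest of its genotype in all 4 for 642 tested genes (4.15%). Whether the numbers pair the libraries is not settled by these values. With the replicate number as a block 0 enzymes were called. The compound median against wild type was -0.17 as before, because a block cannot change the differences when every genotype has each replicate number. Calls over all genes then became 7 for NrasG12D carriers and 0 for the interaction and for compound against Tet2 mutants.

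Leaving out wild-type replicate 1 turned the sign of 17 of the 80 differences of single enzymes. The 80 include compound against Nras and against Tet2 mutants, which do not use wild type and could not change. Among those that turned were Gapdh in Nras mutants (-0.06, against 0.60 with it), Pfkl in compound mutants (-0.20, against 0.06) and Ldha in Nras mutants (0.12, against -0.10). The median in compound against Nras mutants ran from -0.23 to 0.0017 and that of the interaction from -0.10 to 0.15. Isoenzyme ratios also changed sign, and the cause was not tested. With quantile normalization Eno1/Eno2 was -0.11 for NrasG12D. Without wild-type replicate 1 and Nras replicate 2, Hk2/Hk1 was 0.00560 for NrasG12D, and for Tet2+/- Pfkl/Pfkp was -0.0231, Eno1/Eno2 -0.20 and Pgam1/Bpgm 0.0825. Leaving out each library in turn gave ranges for NrasG12D of -0.36 to 0.0353 (Hk2/Hk1), -0.18 to 0.0833 (Pfkl/Pfkp), -0.00782 to 0.49 (Eno1/Eno2) and -0.49 to 0.0265 (Pgam1/Bpgm). The ranges for Tet2+/- were -0.0232 to 0.34 (Hk2/Hk1), -0.0547 to 0.17 (Pfkl/Pfkp), -0.25 to 0.36 (Aldoa/Aldoc), -0.00216 to 0.49 (Eno1/Eno2) and -0.50 to 0.0225 (Pgam1/Bpgm). No difference of Gapdh, Pgk1, Pgam1 or Eno1 was called. With 3 libraries per genotype and reads shared with copies, the smallest difference of these enzymes that could have been detected was not tested.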
